A study of Mus musculus and Acomys cahirinus with 2 samples.

Results

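The genes described here are 66 nuclear genes of the mitochondrial respiratory chain. They were found by symbol: every gene of the NADH dehydrogenase (Nduf), succinate dehydrogenase (Sdh), ubiquinol-cytochrome c reductase (Uqcr), cytochrome c oxidase (Cox4 to Cox8), cytochrome c (Cycs) and ATP synthase (Atp5) series that stood in the gene lists of both libraries, out of 15688 symbols that the lists share. They fall into 30 genes of complex I, 4 of complex II, 7 of complex III, 14 of complex IV and 11 of complex V. The same search found 86 symbols in the Mus list and 66 in the Acomys list, so a further 20 chain genes, among them Cycs and Ndufa4, could be read in the Mus library alone. The study placed 1 droplet single-cell library of adult Mus musculus ear skin beside 1 of adult Acomys cahirinus (spiny mouse) ear skin. Both are labelled day 0, while the series calls the tissues injured, and the labels name no strain, sex, treatment or number of animals. A library holds transcripts counted at their 3' end by unique molecular identifiers (UMIs). With 1 library per species there is no replicate, so no test was made. All intervals printed are exact 95% intervals that cover counting error only. A species difference and a library difference cannot be told apart.

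The respiratory chain sits in the inner mitochondrial membrane. Complexes I and II take electrons from NADH and succinate, complex III passes them to cytochrome c, complex IV hands them to oxygen, and complex V, the ATP synthase, uses the proton gradient so built to make ATP. Complex II is encoded by nuclear genes alone and is at the same time an enzyme of the tricarboxylic acid cycle, whereas the other complexes combine nuclear with mitochondrially encoded subunits. In skin, sebocytes fill with lipid and burst, and keratinocytes lose their organelles as they pass from the basal to the cornified layer.

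The promoters of 4 members are shown because these genes stand at the extremes of the comparisons that follow: Sdhd was among the lowest in the upper epidermis, and Uqcr11, Ndufb7 and Atp5k were among the highest in sebocytes. Each is the 250 bases before the RefSeq start on the mouse build GRCm38.p6, 5' to 3' on the gene's strand, and capitals mark a match to 1 of 2 motifs known from genes for mitochondrial proteins. These were CCGGAAG, the core of ETS factors such as GABP, and the palindrome of NRF1, both searched on both strands. The 4 were picked by hand with their motifs in view, so that all hold a match is no finding.
Sdhd, chr9:50603850-50604099, minus strand: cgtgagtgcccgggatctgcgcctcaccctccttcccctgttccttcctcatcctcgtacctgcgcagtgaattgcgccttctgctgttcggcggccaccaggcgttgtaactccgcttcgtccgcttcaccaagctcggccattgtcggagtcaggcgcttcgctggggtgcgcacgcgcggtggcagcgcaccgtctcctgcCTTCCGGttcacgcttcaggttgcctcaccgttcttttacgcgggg
Uqcr11, chr10:80406822-80407071, minus strand: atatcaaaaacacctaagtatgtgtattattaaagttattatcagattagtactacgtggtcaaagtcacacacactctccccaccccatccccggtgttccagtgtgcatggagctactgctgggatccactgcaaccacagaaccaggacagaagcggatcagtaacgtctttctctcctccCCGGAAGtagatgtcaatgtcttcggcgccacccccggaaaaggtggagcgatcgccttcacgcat
Ndufb7, chr8:83566508-83566757, plus strand: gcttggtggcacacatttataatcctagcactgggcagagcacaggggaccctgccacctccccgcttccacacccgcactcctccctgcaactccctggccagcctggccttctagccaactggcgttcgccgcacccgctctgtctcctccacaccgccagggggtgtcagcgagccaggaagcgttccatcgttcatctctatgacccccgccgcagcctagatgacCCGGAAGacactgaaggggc
Atp5k, chr5:108434400-108434649, minus strand: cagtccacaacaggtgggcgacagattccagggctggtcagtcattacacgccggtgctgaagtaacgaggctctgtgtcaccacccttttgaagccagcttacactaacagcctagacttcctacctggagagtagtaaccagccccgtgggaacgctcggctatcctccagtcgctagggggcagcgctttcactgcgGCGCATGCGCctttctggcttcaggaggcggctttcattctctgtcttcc
Sdhd, Uqcr11 and Ndufb7 hold the ETS letters, and Atp5k holds the NRF1 palindrome. Of the 66 members, 53 had an entry in the promoter table. In windows that add the first 50 transcribed bases, the NRF1 palindrome stood in 9.43% of these members and in 1.802% of the 12378 genes of the table whose symbol is in both lists. The ETS letters stood in 26.4% of members and 15.02% of those genes. CCAAT stood in 43.4% of members and 41.3% of those genes, and TATAAA in 5.66% and 11.4%. A match is only a match of letters.

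The Mus file held 130039670 UMIs and the Acomys file 71042559, and 6556 Mus and 4603 Acomys cells were kept. The libraries had 31 of these cell barcodes in common, against 40.9 for independent draws from the barcodes a library can use. Cells were clustered without the members, and clusters were named from marker genes. Over the epidermal, follicle and sebocyte classes the median depth ran from 7923 UMIs per cell (follicle) to 20457 (granular) in Mus and from 6057 (follicle) to 21128 (granular) in Acomys. Endothelial cells, fibroblasts, chondrocytes and a pericyte and smooth muscle class were shallow, so these, and the basal cells they are set against, were taken from all barcodes with at least 1000 UMIs. In Acomys those 2898 basal cells include a cluster of 851 that also carries follicle genes (Lhx2, Krt35), and values without it, an alternative chosen after seeing the data, stand beside the results. The pericyte and smooth muscle class was led in both libraries by genes of smooth muscle (Tagln, Myl9, Myh11), so its name does not separate the types. Levels are given as CPM, counts per 1000000 UMIs of the 15688 shared genes, and are compared between classes, not between genes. Within a library a member was counted as higher or lower when its CPM differed by at least 1.5-fold, among members with a mean of at least 20 CPM over both classes. Cox4i2, Cox6a2, Cox6b2, Cox8b and Cox8c were under this minimum in every epidermal, follicle and sebocyte contrast of both libraries, and Ndufa4l2 and Sdha in all of these contrasts of Acomys; they are described by their levels. Also under it were Atp5s in all of these contrasts of Mus and 2 of Acomys, Cox7a2l in 4 of Acomys, and Ndufa4l2 in the granular contrast of Mus. The contrast of mature sebocytes with basal cells is left out of these statements. There 61 members reached the minimum in Mus and 59 in Acomys. Since the minimum is a mean over both classes, a member can pass it through the class where it is high.

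Summed over the 66 members, the respiratory chain took about the same part of the transcripts in basal keratinocytes of both libraries, less in the upper epidermis and, among the epithelial classes, most in sebocytes. In Mus basal cells the members made up 3.64% of shared-gene UMIs (interval 3.64 to 3.65, 3377 cells), and in Acomys basal cells 3.83% (1877 cells). The share was 3.20% in Mus and 3.14% in Acomys suprabasal cells below the granular layer, and 2.37% and 2.203% in granular cells. Follicle cells held 3.68% and 3.61%. Sebocytes held 6.65% in Mus (220 cells) and 5.61% in Acomys (308 cells). Endothelial cells held 3.52% and 3.62%, and chondrocytes 3.25% and 3.11%. The pericyte and smooth muscle class, with 36 and 30 cells, held 4.52% (interval 4.39 to 4.65) and 5.47% (5.25 to 5.70); the Acomys interval takes in the sebocyte share. The order from granular through suprabasal and basal cells to sebocytes was the same in both libraries, with each of these steps wider than the counting intervals. Among single cells the quartiles of basal cells lay between 3.32% and 3.85% in Mus and between 3.44% and 4.15% in Acomys, against 5.15% to 7.54% and 4.49% to 6.33% in sebocytes. On this measure the quartile ranges of basal cells and sebocytes did not meet.

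**Figure D1:**
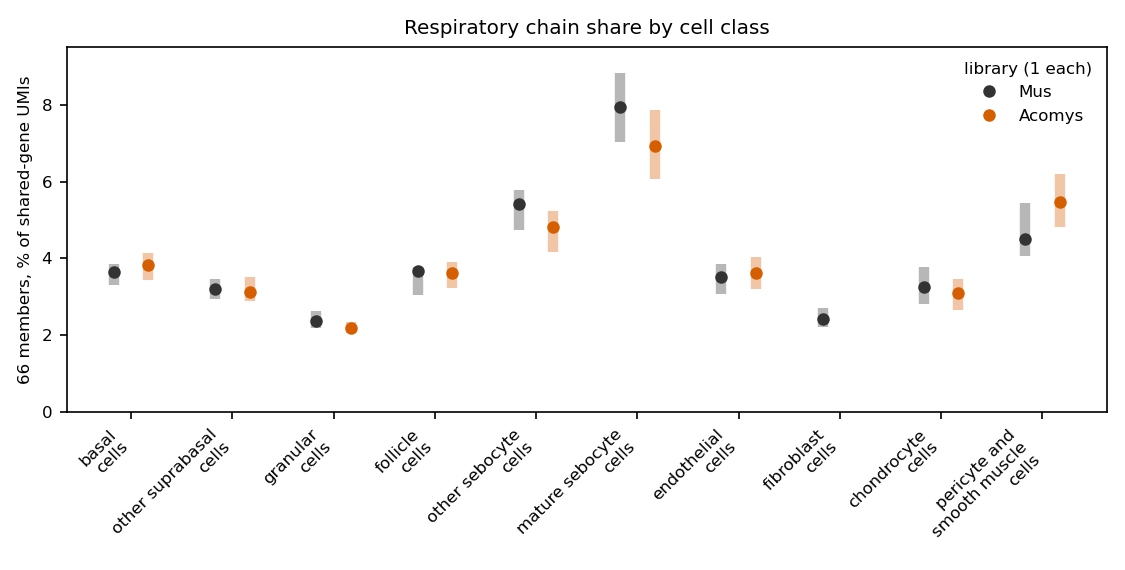
Share of shared-gene UMIs taken by the 66 members (y axis, percent) in each cell class (x axis) of the Mus (dark) and Acomys (orange) library. Points are the summed counts of a class and bars the lower to upper quartile of its cells; mature sebocytes reach 7.93% in Mus and 6.91% in Acomys, granular cells 2.37% and 2.203%.

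Sebocytes, which make the lipids of sebum, held higher levels of members of all 5 complexes than basal keratinocytes did. In Mus, 43 of 60 members were at least 1.5-fold higher and 1 was lower, with a median log2 ratio of 0.82. Over all genes 17.9% were that much higher and 19.1% lower, with a median of -0.06. In Acomys, 25 of 58 members were higher and 0 lower, with a median of 0.55, where 11.5% of all genes were higher, 17.8% lower and the median was -0.13. All 58 Acomys ratios lay above 1. By complex, Mus had 19 of 30 higher in complex I, 4 of 4 in complex II, 4 of 7 in complex III, 8 of 9 in complex IV and 8 of 10 in complex V. Acomys had 10 of 29, 1 of 3, 5 of 7, 4 of 9 and 5 of 10. The summed share of the members was 1.82-fold higher in Mus (interval 1.81 to 1.83) and 1.46-fold higher in Acomys (1.45 to 1.48).

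In Mus sebocytes the members furthest above basal cells included Ndufb7, an accessory subunit of complex I, at 932 CPM in sebocytes and 315 in basal cells, 2.96-fold higher (interval 2.81 to 3.12). Uqcrq, a small subunit of complex III, stood at 1618 and 575 CPM, 2.81-fold higher. The complex IV subunits Cox7b, Cox7c and Cox8a were 2.81-fold, 2.73-fold and 2.63-fold higher. In Acomys, the small complex III subunit Uqcr11 led, at 1001 CPM in sebocytes and 444 in basal cells, 2.26-fold higher (2.13 to 2.38). Uqcr10 of the same complex was 2.14-fold higher, the complex I subunits Ndufa1 and Ndufc2 1.97-fold and 1.88-fold, and Atp5k, a membrane subunit of the ATP synthase, 1.84-fold. The single lower member in Mus was Ndufa4l2, at 13.2 and 101 CPM, 7.67-fold lower (5.18 to 11.9). Uqcrc1, a core protein of complex III, stood at 981 and 1063 CPM in Mus, 0.92-fold (0.88 to 0.97), and at 547 and 449 CPM in Acomys, 1.22-fold (1.13 to 1.31).

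The leading members were not the same in the libraries. Ndufb7, first in Mus, was 1.46-fold higher in Acomys, and Uqcrq 1.79-fold, while Uqcr11 was 2.25-fold higher in Mus and 2.26-fold in Acomys. Across the 58 members that could be compared, 56 had the same sign in both libraries, and the ratio was at least 1.5-fold lower in Acomys for 11 and higher for 2, with a median difference of -0.28 (log2) against -0.11 over all genes. Over all genes 17.4% were that much lower and 9.33% higher, and 71.6% had the same sign. Pearson's r between the log2 ratios of the libraries was 0.43 across these members and 0.71 across all genes; the genes share their libraries and are not independent replicates. Ndufa1 was 1.97-fold higher in Acomys and 1.30-fold higher in Mus. Cox7a2l, a factor that helps complexes III and IV join, was 0.85-fold in Mus and 1.38-fold in Acomys (interval 0.98 to 1.91), where it stood at 26.4 and 19.2 CPM.

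**Figure D2:**
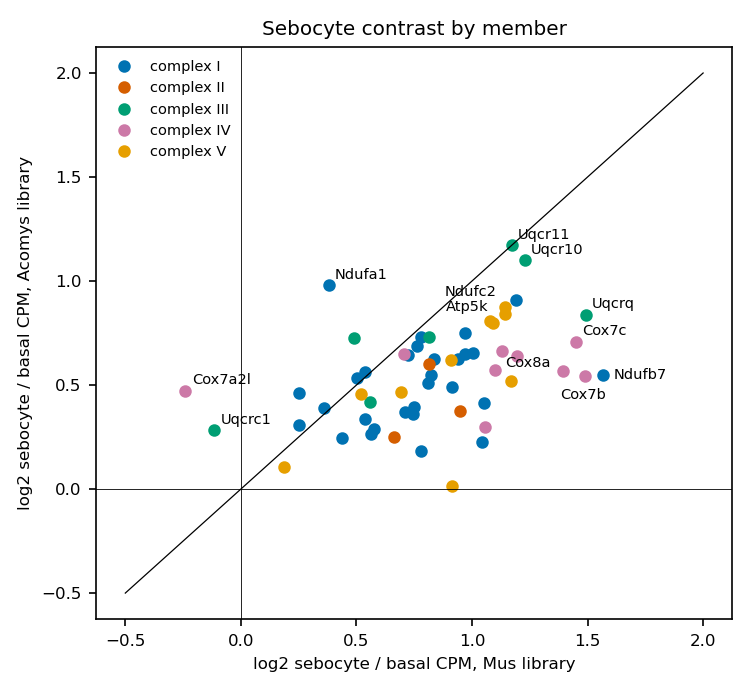
Log2 ratio of sebocyte to basal CPM for each of 58 members in the Mus (x axis) and Acomys (y axis) library, coloured by complex, with the line of equal ratios. Most points lie right of and below the line: Ndufb7 stands at 2.96-fold in Mus and 1.46-fold in Acomys, Uqcr11 lies on the line, and Ndufa1 lies above it.

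The sebocytes of each library fell into a mature cluster, with at least 7 sebocyte markers, and another with fewer; this split was chosen after the shares had been seen. In Mus the mature cluster (89 cells, led by the lipid droplet gene Cidea and the fatty acid elongase Elovl6) held 7.93% of its UMIs in members and the other (131 cells, with cell cycle genes) 5.41%. In Acomys the mature cluster (104 cells, led by Cers4 and the lipid droplet coat gene Plin2) held 6.91% and the other (204 cells) 4.81%. Both clusters of both libraries thus lay above the basal share. Between mature and other sebocytes, 27 of 60 members were higher and 0 lower in Mus, with a median log2 ratio of 0.54, while 17.5% of all genes were higher. In Acomys 23 of 59 were higher and 0 lower, with a median of 0.45, while 13.9% of all genes were higher. Over all genes 24.3% in Mus and 18.6% in Acomys were lower. Uqcrq was 2.50-fold higher in mature cells in Mus (2331 against 931 CPM) and stood at 2391 against 1196 CPM in Acomys (interval of the ratio 1.86 to 2.15). Ndufv3, an accessory subunit of complex I, was 2.08-fold higher in Mus, and Ndufa1 2.30-fold in Acomys. Atp5g2, which encodes the c-ring subunit, stood at 1690 CPM in mature and 1936 CPM in other Acomys sebocytes, and at 1338 and 1386 CPM in those of Mus. Its paralogue Atp5g1, which encodes the same mature protein, stood at 2385 and 1400 CPM there, and in Mus at 2698 and 1576 CPM. Relative to basal cells, mature sebocytes had 53 of 61 members higher and 1 lower (Ndufa4l2) in Mus, where 22.5% of all genes were higher and 29.2% lower. In Acomys they had 45 of 59 higher and 0 lower, where 17.9% and 28.5% were.

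Other mitochondrial genes were in part higher in sebocytes too. Fatty acid oxidation genes were higher in 13 of 14 measured genes in Mus (median log2 ratio 1.24) and 9 of 12 in Acomys (1.53), and 1 was lower in Mus. Tricarboxylic acid cycle genes were higher in 11 of 17 and 5 of 11, with medians of 0.79 and 0.58, and 1 was lower in Mus. Genes of mitochondrial protein import and cristae were higher in 12 of 18 and 3 of 15 (medians 0.74 and 0.32), and assembly factors of complexes II to V in 9 and 7 of 23 each (0.41 and 0.31). Of the regulators of mitochondrial biogenesis, 1 of 6 and 0 of 5 were higher. Mitochondrial ribosome genes were higher in 22 of 69 and 12 of 71, with medians of 0.43 and 0.26. Of 37 and 35 cytosolic ribosomal protein genes, 1 and 0 were higher and 2 and 4 lower, with medians of -0.25 and -0.18. Glycolysis genes were split, with 3 higher and 3 lower of 13 in Mus and 4 higher and 2 lower of 12 in Acomys. Of the 20 chain genes that only the Mus list holds, 17 could be compared, and 16 of these were higher in sebocytes. Ndufs4, a complex I subunit, was 3.22-fold higher (525 against 163 CPM), Ndufab1, the acyl carrier protein, 3.15-fold (1051 against 333 CPM), and Cycs, cytochrome c itself, 2.25-fold (705 against 313 CPM). Of 12 mitochondrially encoded genes compared in Mus, 10 were higher, with mt-Cytb at 2.36-fold and mt-Nd5 at 1.02-fold. Mitochondrially encoded genes made up 5.77% of all UMIs in Mus sebocytes and 3.03% in basal cells. Sebocyte markers summed to 17801 CPM in Mus sebocytes and 291 in basal cells, and to 5066 and 312 CPM in Acomys (4 of 15 at 0 in Acomys sebocytes). The class was named from these markers, so their level is no independent check.

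In the suprabasal epidermis, where keratinocytes differentiate, most members were lower than in basal cells, by about as much as other genes of at least 20 CPM. In Mus 0 of 60 members were higher and 9 lower, with a median log2 ratio of -0.26; over all genes 12.1% were higher and 31.1% lower, with a median of -0.32. In Acomys 0 of 58 were higher and 10 lower, with a median of -0.36. Over all genes 10.1% were higher and 35% lower, with a median of -0.36. Among genes of at least 100 CPM, members had medians of -0.26 in Mus and -0.36 in Acomys, against -0.19 and -0.25 for all such genes. There 7 of 57 and 10 of 56 members were lower and 0 higher. Of all such genes 21.4% and 24.9% were lower and 16.1% and 13.7% higher. The scale matters here: set against the median gene of at least 50 CPM, which was shifted by -0.24 in Mus and -0.30 in Acomys, the medians of the members were -0.02 and -0.06. On that scale 4 members in Mus and 2 in Acomys remained past 1.5-fold on the lower side. On the higher side 1 member in each library was past it (Cox7c in Mus and Ndufc1 in Acomys). How many of all genes were past the fold on that scale was not counted, so these counts stand without a background.

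Complex II departed from this pattern, most through Sdhd in both libraries and Sdhb in Acomys. In Mus suprabasal cells Sdhb and Sdhc were lower by similar amounts (log2 -0.76 and -0.86). Sdhb, the iron-sulphur subunit, stood at 298 CPM in basal, 210 in other suprabasal and 89.3 in granular cells of Mus, and at 275, 71.0 and 20.8 CPM in Acomys. Sdhd, a membrane anchor subunit, stood at 150, 72.8 and 17.4 CPM in Mus and at 327, 101 and 26.1 CPM in Acomys. Sdhc, the other anchor subunit, stood at 119, 73.6 and 45.7 CPM in Mus and at 371, 231 and 84.7 CPM in Acomys. Each step down was larger than the counting intervals for these 3 genes in both libraries. Sdha, the flavoprotein subunit that oxidises succinate, was lower by less in Mus, at 119, 94.6 and 63.9 CPM, and under the minimum of 20 CPM in Acomys (17.5, 8.26 and 5.21 CPM). In all suprabasal against basal cells Sdhd was 2.64-fold lower in Mus (interval 2.47 to 2.82) and 3.47-fold lower in Acomys (3.21 to 3.75). Sdhb was 1.70-fold lower in Mus (1.63 to 1.77) and 4.14-fold lower in Acomys (3.78 to 4.54). Set against the median gene, Sdhd still differed by -1.16 (log2) in Mus and -1.49 in Acomys, and Sdhb by -0.52 and -1.75. On that scale Sdhc differed by -0.62 and -0.47, and Sdha in Mus by -0.23.

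In other complexes single members stood out on either side. Uqcrc1 was 2.04-fold lower in Mus (520 against 1063 CPM) and 1.78-fold lower in Acomys (252 against 449 CPM). Ndufa4l2, a paralogue of Ndufa4 known from low-oxygen responses, was 4.47-fold lower in Mus suprabasal cells, at 22.7 against 101 CPM. Cox7c, a small complex IV subunit, was 1.37-fold higher in Mus (1224 against 894 CPM) and 0.91-fold in Acomys, where it turned to above 1 when set against the median gene (log2 0.16). Ndufc1, a small complex I subunit, was 1.42-fold higher in Acomys (812 against 573 CPM) and 1.11-fold higher in Mus. The sign of the class ratio was the same in both libraries for 47 of 57 members, and for 81.6% of all genes. The ratio was at least 1.5-fold higher in Acomys than in Mus for 0 members and lower for 2, where 8.44% and 12.5% of all genes were.

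Granular keratinocytes, the last living layer, held a still smaller share of the chain. In Acomys, though, lower members were about as frequent as lower genes among all genes of at least 20 CPM. Against other suprabasal cells 24 of 59 members were lower in Mus and 25 of 58 in Acomys, and 0 were higher in either. The medians were -0.48 and -0.51 (log2), where all genes had medians of -0.21 and -0.37, with 28.6% and 40.6% of genes lower and 16.3% and 19.7% higher. Most members have high levels. Among genes of at least 100 CPM, 22 of 55 members in Mus and 22 of 54 in Acomys were lower and 0 higher. Of all such genes 21.5% and 34.5% were lower and 19.6% and 23.7% higher. Medians there were -0.47 and -0.50 for members, against -0.10 and -0.26 for all such genes. Set against the median gene, shifted by -0.16 in Mus and -0.32 in Acomys, the medians of the members were -0.32 and -0.19, and 11 members in Mus and 13 in Acomys were past 1.5-fold on the lower side. On that scale 0 in Mus and 1 in Acomys (Cox6b1, log2 0.59) were past it on the higher side. The share of all genes past the fold on that scale was not counted, so these counts stand without a background. Complex II had 3 of 4 lower in Mus and 3 of 3 in Acomys, and complex V had 7 of 10 and 8 of 11. Complexes I, III and IV had 9 of 29, 3 of 7 and 2 of 9 in Mus, and 11 of 29, 2 of 7 and 1 of 8 in Acomys. Sdhd was 4.17-fold lower in Mus (interval 3.39 to 5.19) and 3.88-fold lower in Acomys (2.49 to 6.38), the latter from 20 UMIs in 52 granular cells.

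Among ATP synthase genes, Atp5b, the catalytic beta subunit, was 1.79-fold lower in Mus granular cells (731 against 1308 CPM). Atp5g2 was 1.80-fold lower in Mus (504 against 905 CPM) and 2.42-fold lower in Acomys (546 against 1322 CPM), and Atp5g1 2.56-fold lower in Acomys (393 against 1009 CPM). Cox4i1, the usual form of a core regulatory subunit of complex IV, was 1.73-fold lower in Mus (1081 against 1872 CPM). The complex I subunits Ndufb11 and Ndufb5 were 2.94-fold and 2.58-fold lower in Acomys. Ndufa11, another complex I subunit, was slightly higher in both, at 1.13-fold in each library, and Cox6b1 was 1.20-fold higher in Acomys. Other lists were lower in part as well: of mitochondrial ribosome genes 31 of 68 were lower in Mus and 42 of 69 in Acomys, of tricarboxylic acid cycle genes 12 of 16 and 6 of 10, and of cytosolic ribosomal protein genes 16 of 36 and 25 of 35. In Mus, 7 of 12 mitochondrially encoded genes were lower and 0 higher, and they made up 1.84% of all UMIs in granular cells against 2.63% in other suprabasal cells. The Acomys granular class is 1 cluster of 52 cells; with the cell limit at 1000 UMIs, 318 cells took the name and the median was -0.39.

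**Figure D3:**
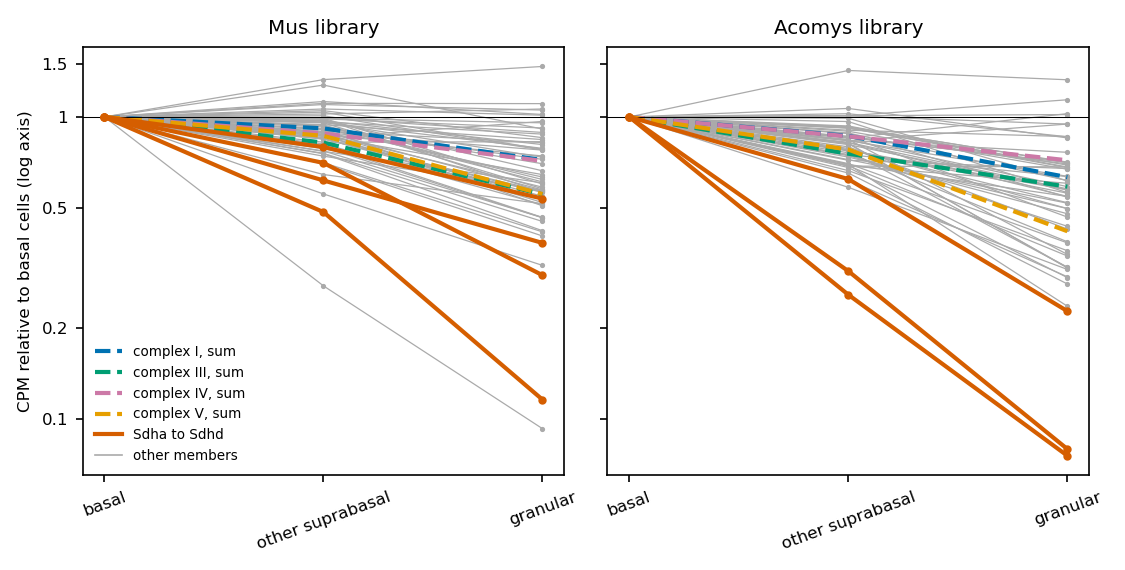
CPM relative to basal cells (log y axis) in basal, other suprabasal and granular keratinocytes (x axis) for members of at least 20 CPM in basal cells, in the Mus (left) and Acomys (right) library; orange lines are complex II genes, grey lines the other members and dashed lines the sums of complexes I, III, IV and V. Sdhd ends at 17.4 CPM in Mus and 26.1 CPM in Acomys granular cells, from 150 and 327 CPM in basal cells, and lies below the dashed lines in both; the lowest grey line in Mus is Ndufa4l2.

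One chain gene that only the Mus list holds was higher in granular cells. Ndufa4, now regarded as a subunit of complex IV, stood at 1093 CPM in basal, 1357 in other suprabasal and 4325 CPM in granular cells, 3.19-fold higher in granular than in other suprabasal cells (interval 3.13 to 3.25). It was chosen for this description after its values had been seen. In the 3 granular clusters it stood at 2553, 4912 and 9364 CPM (intervals 2498 to 2608, 4797 to 5028 and 9172 to 9559), the last in the cluster led by the cornified envelope gene Lor. The 3 other suprabasal clusters held 1288 to 1619 CPM. Of the 17 such genes compared in this contrast it was the only one at least 1.5-fold higher, while Atp5g3, Cycs, Cox5b and Ndufab1 were at least 1.5-fold lower. Its level in Acomys was not analysed here, since its symbol was not matched in that list, and reads of near-identical copies of the gene cannot be told apart in these counts.

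Pooled over their clusters, cycling and resting basal cells differed little. Against resting basal cells, 0 of 60 members in Mus and 0 of 58 in Acomys were 1.5-fold higher or lower, where 11.3% and 10.2% of all genes were higher and 3.99% and 5.26% lower. The medians were 0.13 (log2) in both, against 0.01 and 0.03 over all genes, and 42 and 46 members lay above 0. With the 50 highest genes of either class left out of the total, the medians were 0.02 and 0.03. Cox8a led in both libraries, at 1398 against 1019 CPM in Mus (1.37-fold, interval 1.34 to 1.40) and 513 against 370 CPM in Acomys (1.39-fold, 1.30 to 1.48). Sdhd was 1.37-fold and 1.38-fold higher, and Cox5a, a nuclear subunit of complex IV, 1.32-fold and 1.26-fold. Cox7a2l was lowest in Mus, at 0.80-fold, and Atp5f1, a stalk subunit of the ATP synthase, in Acomys, at 0.85-fold. By cluster, the member share of cycling cells ran from 3.64% to 4.20% in Mus and from 3.73% to 4.42% in Acomys. Resting clusters ran from 3.50% to 3.75% and from 3.42% to 4.02%. The highest cycling shares were in the clusters led by the mitosis genes Cenpa (Mus) and Ccnb2 (Acomys).

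Follicle cells stayed near basal levels, with medians of 0.00 in Mus and -0.05 in Acomys, against 0.06 and -0.09 over all genes; set against the median gene they were -0.03 and 0.03. In Mus 2 of 60 members were higher and 2 lower, where 9.88% of all genes were higher and 6.21% lower, and in Acomys 0 of 57 were higher and 1 lower, where 10.1% and 13.1% were. Ndufa11 was highest in Mus, at 713 against 434 CPM (1.64-fold, interval 1.55 to 1.74), and 1.20-fold higher in Acomys. Sdhb was 1.60-fold higher in Mus (478 against 298 CPM) and lower in Acomys (209 against 275 CPM). The sign of the follicle ratio was the same in both libraries for 30 of 57 members and 53.3% of all genes. Pearson's r between the libraries was 0.09 across these members and 0.31 across all genes. The follicle class holds different clusters in the libraries, one of them cycling in Mus and one led by inner root sheath keratins in Acomys. In Mus the cycling cluster (48 cells) held 4.55% of its UMIs in members. The other Mus clusters (141 and 122 cells) held 3.53% and 3.31%, below the basal share of 3.64%. From all barcodes of at least 1000 UMIs, 1 Mus cluster of 262 cells took the name, the member share there was 2.73%, and the Mus median was -0.39, so the Mus follicle values depend on which cells are included.

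Blood endothelial cells (186 in Mus and 413 in Acomys) also held a share close to that of basal cells, with single members further apart. In Mus 3 of 60 members were higher and 7 lower, where 32.9% and 20% of all genes were, and in Acomys 2 of 59 were higher and 5 lower, where 25% and 20.6% were. Ndufa8, a complex I subunit, was 2.16-fold higher in Mus (745 against 344 CPM, interval 1.93 to 2.42) and 1.48-fold in Acomys (627 against 422 CPM, 1.33 to 1.65). Cox6c of complex IV was 1.64-fold and 1.36-fold higher. The 2 large catalytic-head subunits of the ATP synthase were lower in both: Atp5a1 1.83-fold in Mus and 1.62-fold in Acomys, and Atp5b 1.77-fold and 1.63-fold. Uqcrc1 was 2.95-fold lower in Mus (352 against 1039 CPM), and Ndufa12 stood at 595 against 1190 CPM in Acomys (interval of the inverse ratio 1.80 to 2.23). In Mus, 10 of 13 mitochondrially encoded genes were at least 1.5-fold higher, with mt-Co1 at 17132 against 7729 CPM, and they made up 6.28% of all UMIs, against 3.16% in basal cells of the same depth limit. Of 18 nuclear chain genes of the Mus list alone, 0 were higher and 0 lower. Other shallow Mus classes had higher medians for mitochondrially encoded genes than for these nuclear ones as well: 1.49-fold and 0.87-fold in chondrocytes (6 of 12 and 0 of 18 higher), 1.27-fold and 0.69-fold in fibroblasts, and 1.70-fold and 1.31-fold in the pericyte and smooth muscle class. Without the cluster that carries follicle genes, 3 of 59 Acomys members were higher and 5 lower in endothelial cells. Over all genes 26.5% were higher and 19.97% lower with that cluster left out. Blood endothelial markers summed to 11276 CPM in Mus and 6330 CPM in Acomys with none at 0. Suprabasal keratinocyte markers summed to 9164 and 19127 CPM in the same cells (13 markers, none at 0), and their part in these values was not tested.

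Among stromal cells, chondrocytes of the ear cartilage (65 in Mus and 162 in Acomys) had medians of -0.15 and -0.34, against 0.02 and 0.06 over all genes. In Mus 3 of 61 members were higher and 12 lower, where 26.4% and 21.3% of all genes were, and in Acomys 1 of 58 was higher and 8 lower, where 28.1% and 20.4% were. Uqcrc1 was 2.01-fold lower in Mus and 1.91-fold lower in Acomys. Mus fibroblasts had a median of -0.53 with 1 of 60 members higher and 27 lower, where 33.6% and 29.4% of all genes were, but this rests on 37 cells. Among the deeper cells 60 fibroblasts were found, and the median there was -0.09. No Acomys cluster of at least 30 cells was named fibroblast at either depth. The Acomys chondrocyte cluster had the fibroblast markers Dcn and Col1a2 among its leading genes. The pericyte and smooth muscle class, added after its share had been seen, had 13 of 61 members higher in Mus and 25 of 60 in Acomys, where 32.9% and 48.2% of all genes were higher, with medians of 0.34 and 0.46 against 0.20 and 0.54 over all genes. Over all genes 14.7% and 17.2% were lower, and 2 members in each library. Without the Acomys cluster that carries follicle genes, 1 of 58 members was higher and 11 lower in chondrocytes. Over all genes 30.1% were higher and 20.2% lower there. In the pericyte and smooth muscle class 25 of 60 members were then higher and 2 lower, where 49.7% and 16.99% of all genes were. Suprabasal keratinocyte markers summed to 13877 and 21947 CPM in chondrocytes and to 20602 and 19543 CPM in the pericyte and smooth muscle class of Mus and Acomys (at most 5 of 13 at 0), and their part in these values was not tested.

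Several members exist as a common and a tissue-restricted form. Cox4i1 was found in every class, from 1081 to 4634 CPM in Mus and from 767 to 2986 CPM in Acomys. Its paralogue Cox4i2, known from lung, vessels and low-oxygen responses, was near 0 in epithelium, at 0.28 CPM (7 UMIs) in Mus basal and 1.08 CPM (11 UMIs) in Acomys basal cells. It reached 89.7 CPM (9 UMIs) in the pericyte and smooth muscle class of Mus and 1207 CPM (48 UMIs) in that of Acomys. A UMI of Cox4i2 was seen in 8 of 36 Mus cells of this class (22.2%, Clopper-Pearson interval 10.1 to 39.2) and in 18 of 30 Acomys cells (60%, 40.6 to 77.3). It was seen in 0 of 39 Mus and 0 of 89 Acomys T cells, which allows shares of up to 7.69% and 3.37% (3 cells of the total) of cells with a UMI and sets no limit on cells that express the gene. Median depths were 2881 and 1692 UMIs in the pericyte and smooth muscle class and 3071 and 2112 in the T cells. The chondrocyte classes of the libraries differed. Cox4i2 stood at 390 CPM in Mus, in 22 of 65 cells. It stood at 11.3 CPM in Acomys, from 3 UMIs in 162 cells, 34.6-fold lower (interval 11.3 to 172). The Acomys class also had the fibroblast markers Dcn and Col1a2 among its leading genes, and the Mus class did not. Species, library, gene model and the cells in the class cannot be told apart here. Among other paired forms, Cox6a2 and Cox8b, the muscle forms, had at most 6 UMIs in any class, and Cox6b2, the testis form, stood at 31.9 CPM in Mus follicle cells (0.79 CPM at the lower cell limit) and at 1.51 CPM in those of Acomys.

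Ndufa4l2 was seen in epithelial and stromal cells of Mus and was near 0 in Acomys. Species, library and gene model cannot be told apart for this difference. In Mus it stood at 101 CPM in basal, 57.0 in follicle, 28.0 in other suprabasal, 9.43 in granular and 13.2 CPM in sebocyte cells. The Mus pericyte and smooth muscle class held 239 CPM, chondrocytes 104 and endothelial cells 9.53 CPM. In Acomys basal cells it stood at 0.49 CPM, from 5 UMIs, and 0 UMIs were seen in the same class, chondrocytes and endothelial cells of Acomys. A UMI was seen in 1117 of 4136 Mus basal cells (27.0%, interval 25.7 to 28.4) and in 8 of 2898 Acomys basal cells (0.276%, 0.119 to 0.543), at median depths of 10775 and 6060 UMIs. Without the Acomys cluster that carries follicle genes it was seen in 7 of 2047 (0.342%, 0.138 to 0.703). In T cells the shares were 2.56% (1 of 39, interval 0.065 to 13.5) and 1.12% (1 of 89, 0.028 to 6.10). Their median depths were 3071 and 2112 UMIs. With 1 such cell in each library, these shares cannot set a background level for basal cells.

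**Figure D4:**
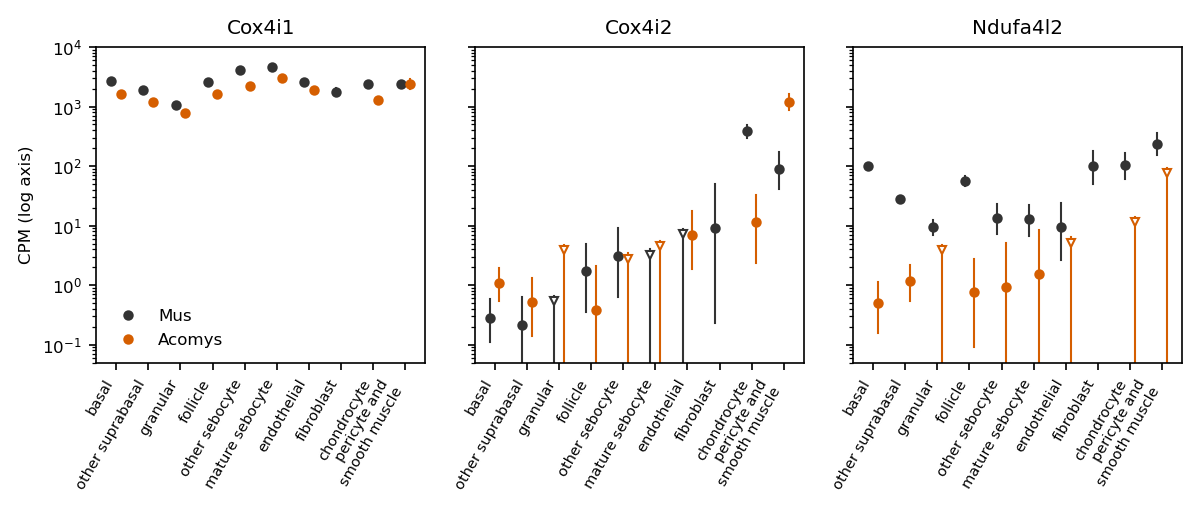
CPM (log y axis) of Cox4i1, Cox4i2 and Ndufa4l2 by cell class (x axis) in the Mus (dark) and Acomys (orange) library, with exact Poisson intervals of the counts; open triangles mark classes with 0 UMIs at the limit that a count of 0 allows. In the pericyte and smooth muscle class Cox4i2 is higher in Acomys (1207 CPM) than in Mus (89.7 CPM), and among basal cells Ndufa4l2 is higher in Mus (101 CPM) than in Acomys (0.49 CPM).

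Between the libraries, levels of single members differed more than the sum did, but a sum of many genes evens out single differences. In no class were 2-fold differences more frequent among members than among all genes. In basal cells 8 of 60 members were at least 2-fold higher in Acomys and 10 at least 2-fold lower, where 14.7% and 27.6% of all genes were, with a median log2 ratio of 0.16 against -0.15 over all genes. In suprabasal cells 3 of 59 were higher and 11 lower (13.9% and 29.3% of all genes), and in follicle cells 2 and 10 of 60 (12.6% and 32.8%). In sebocytes 1 of 59 was higher and 10 lower (13.5% and 31.2%), in endothelial cells 5 and 8 of 60 (15.4% and 33%), and in chondrocytes 3 and 11 of 62 (19.9% and 29%). Their medians were 0.08, 0.07, -0.07, 0.20 and 0.16 in that order. Cox7a2l was 54.4-fold lower in Acomys basal cells (19.2 against 1044 CPM, interval 47.3 to 63.0) and between 32.7-fold and 67.1-fold lower in the other 5 classes. Sdha was 6.79-fold lower in basal cells (17.5 against 119 CPM), Uqcr10 4.57-fold (147 against 669 CPM) and Cox8a 2.78-fold (408 against 1134 CPM). Sdhc was 3.11-fold higher in Acomys basal cells (371 against 119 CPM, 2.96 to 3.26), Atp5f1 2.42-fold and Ndufa12 2.34-fold. In sebocytes Sdhc was 2.34-fold higher, Cox8a 4.93-fold lower and Uqcr10 4.99-fold lower. The libraries were counted on different gene lists, so species, library and gene model cannot be told apart for these differences.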

How the data were processed

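The deposited files hold raw UMI counts per gene and barcode of 2 droplet libraries. The submitters' processing notes name Cell Ranger 2.2.0 and the build mm10 for both, while the Acomys gene list carries identifiers of an Acomys annotation. The sources used here do not state how the reference for Acomys was made. All other values were computed from these deposited counts.

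Cells had at least 0.1 of the UMIs of the 99th percentile of the 3000 largest barcodes, at least 200 genes and at most 20% mitochondrially encoded UMIs (Mus only, since the Acomys list has no such genes). These limits left barcodes of at least 4695 (Mus) and 2871 UMIs (Acomys). Simulated doublets were scored per library, and the highest 386 (Mus) and 183 (Acomys) scores were removed at a rate of 0.8% per 1000 cells. Cells were clustered by Leiden (scanpy 1.11.5, 2000 variable genes without the members, 30 components, resolution 1). A cluster took a name from at least 3 markers seen in 20% of its cells and 1.5-fold above the others, and otherwise stayed unnamed. Counts were summed per class and divided by the UMIs of the 15688 shared symbols. Log2 ratios use a prior count of 0.5; ratio intervals are exact conditional binomial intervals, level intervals exact Poisson intervals and shares of cells Clopper-Pearson intervals; the limit of a count of 0 is 3 counts of the total.

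Members named per contrast are the 5 highest and 5 lowest by the interval bound nearest to equality among members of at least 20 CPM, plus paralogue sets and the largest library differences. The members and lists were chosen with earlier results of these data known. The summation and interval code was tested on simulated data. Alternatives covered cell limits, doublets, clustering, scaling, free RNA, cell weight, thinning to 2500 UMIs, the CPM minimum and the member list, and 3 were added after seeing the data (leading genes out of the total, and either of 2 Acomys basal clusters left out).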

Additional observations from a re-analysis of the deposited data

Results flagged for a closer look

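With 1 library per species no value could be tested as an outlier among replicates. Listed here are members whose class ratio lay on opposite sides of 1 in the libraries, with both counting intervals clear of 1 and the log2 ratios at least 1.5-fold apart; these differences were not tested. In suprabasal against basal cells, Cox7c had a log2 ratio of 0.45 in Mus and -0.14 in Acomys, a difference of -0.59; the Acomys value was above 0 when set against the median gene (0.16) and with leading genes left out of the total (0.088), so its opposite sign depends on the scale. In follicle against basal cells, Sdhb had 0.68 and -0.40 (-1.08), Cox8a 0.36 and -0.38 (-0.73) and Ndufa1 -0.46 and 0.36 (0.82). Opposite signs were common in that contrast: 30 of 57 members and 53.3% of all genes had the same sign in both libraries. In endothelial against basal cells, Atp5e had 0.40 and -0.25 (-0.65), Ndufa2 0.36 and -0.45 (-0.81) and Atp5g2 -0.53 and 0.32 (0.84). In pericyte and smooth muscle against basal cells, Ndufa12 had 0.82 and -0.59 (-1.41), from 36 and 30 cells. The other 7 had opposite signs on those scales too, and for Cox8a the Mus follicle value turned to -0.096 with cells of at least 1000 UMIs.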

How the results depend on the processing

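No paired analysis was possible because each species has 1 library. Values are median log2 ratios of the members unless called a summed share ratio; the cause of a move was not tested. With CPM over all genes of a file, suprabasal against basal cells gave -0.19 (Mus) and -0.26 (Acomys), granular Acomys cells -0.39, Acomys follicle cells 0.062, which reversed their sign, Mus fibroblasts -0.30 and Acomys chondrocytes -0.22. Set against the median gene, suprabasal cells gave -0.021 and -0.055, granular cells -0.32 and -0.19, Acomys cycling cells 0.093, follicle cells -0.027 and 0.030 (the latter reversed) and fibroblasts -0.39. With leading genes left out of the total, chosen after seeing the data, suprabasal cells gave -0.097 and -0.15, Acomys granular cells -0.39, cycling cells 0.024 and 0.034, Mus follicle cells -0.029, Mus sebocytes 0.69, Mus endothelial cells -0.32 and Acomys against Mus sebocytes 0.083. With ribosomal protein genes left out, Acomys suprabasal cells gave -0.49, Mus granular cells -0.62, Acomys cycling cells 0.067, follicle cells -0.031 and -0.20, Mus endothelial cells -0.29, fibroblasts -0.78 and chondrocytes -0.31 and -0.51.

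With a limit of 1000 UMIs, Acomys granular cells gave -0.39, Mus follicle cells -0.39, Mus sebocytes 1.07 and Acomys against Mus 0.55 (follicle) and -0.38 (sebocyte); there the Mus sebocyte class held the mature cluster alone. Fibroblasts gave -0.23 at 500 UMIs, -0.087 at the deeper limit and -0.29 with unnamed clusters counted in. Resolution 0.5 gave -0.24 (Mus follicle), 1.09 (Mus sebocyte), 0.38 and -0.38 (Acomys against Mus follicle and sebocyte), and resolution 2 gave -0.43 (Acomys chondrocyte). With 15 components the values were 0.080 (Mus follicle), 1.08 (Mus sebocyte), -0.24 (fibroblast) and -0.37 (Acomys against Mus sebocyte). Without doublet removal they were 0.059 (Mus follicle), 0.46 (Acomys sebocyte) and -0.24 (fibroblast). Mus follicle cells gave -0.036 when thinned and -0.13 with members among the clustering genes. Without the basal cluster led by Cyp1a1, also chosen after seeing the data, Acomys cycling cells gave 0.21; without the one led by Aspn, chosen likewise, the Acomys endothelial and chondrocyte medians were -0.16 and -0.33.

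The summed share ratio of suprabasal against basal cells (Mus, Acomys) was 0.86 and 0.86 over all genes, 0.81 and 0.77 at 1000 UMIs, 0.91 and 0.93 without leading genes, 0.96 and 0.98 against the median gene, 0.82 and 0.83 thinned, 0.83 and 0.83 with cells weighted equally, 0.79 and 0.78 with free RNA subtracted, 0.84 and 0.81 without doublet removal, and 0.76 and 0.73 without ribosomal protein genes. For sebocytes these were 1.88 and 1.499 over all genes, 2.18 (Mus) at 1000 UMIs, 1.68 and 1.42 without leading genes, 1.85 and 1.53 against the median gene, 1.77 (Mus) thinned, 1.77 and 1.45 weighted equally, 1.91 and 1.51 with free RNA subtracted, 1.79 and 1.37 without doublet removal, and 1.73 and 1.41 without ribosomal protein genes. Another 315 values of contrasts stayed inside the interval around the reported value. For a summed share ratio this was the counting interval. For a median it was an interval from the ranks of the member ratios, which measures their spread. It treats members as independent, which they are not, so staying inside it is a loose criterion. Of the values of single members, 2655 stayed inside their counting interval and 615 moved out of it. Of these values 0 turned from a difference past the fold to the opposite side. Alternatives that left a class under 30 cells gave no value.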
